A study of Homo sapiens with 6 samples.

Results

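The data described here are the RNA levels of mucin and carcinoembryonic antigen cell adhesion molecule (CEACAM) genes in L1high and L1low pancreatic cancer cells. The members were chosen by symbol, through the Ensembl identifiers of the count table, as 9 surface genes of glandular pancreatic cancer: MUC1, MUC4, MUC13, MUC16, MUC20, CEACAM1, CEACAM5, CEACAM6 and CEACAM19. Of these, 5 had a row among the 19469 genes of the table (MUC1, MUC4, MUC16, CEACAM6 and CEACAM19). The other 4 had no row in the counts used here, so their levels were not analysed here. Each row of the table exceeded 1 CPM, the unit of counts scaled to library size, in at least 2 of the 6 libraries.

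The cells were of L3.6pl, an established human line from a metastatic lymph node, labelled as pancreatic adenosquamous carcinoma within pancreatic ductal adenocarcinoma (PDAC). The labels also write the line as L6.6pl. Living cells were separated by fluorescence-activated sorting on surface L1CAM, a neural cell adhesion molecule also carried by tumour cells, into L1high cells (labelled L1CAM_POSITIVE) and L1low cells (labelled L1CAM_NEGATIVE). Both populations grew in DMEM with 10% FBS and antibiotics without any treatment, and each gave 3 libraries of stranded mRNA. A single line stands for each population, so the comparison holds for L3.6pl cells only. The study's methods describe its sorting experiments in general as independently repeated, but the labels do not say whether these replicates came from separate cultures. The p-values therefore measure only the spread between these libraries, which may be technical. Between 16334610 and 21064685 reads were counted on genes per library. The study's own comparison leaves out L1high replicate 3 with no reason given, so the test was run over the other 5 libraries and then over all 6. Differences are log2 fold changes of L1low over L1high from edgeR's quasi-likelihood test, positive where L1low was higher, and a gene is called at a Benjamini-Hochberg adjusted p under 0.05. Levels are CPM scaled with edgeR's TMM factors. The sorting marker L1CAM fell by 1.90 on the log2 scale (SE 0.123, adjusted p = 3.7e-06), from 69.8 to 89.5 CPM in the L1high libraries to 17.7 to 23.7 CPM in the L1low libraries. All 6 listed markers of simple epithelium (EPCAM, CDH1, KRT7, KRT8, KRT18 and KRT19) and all 6 of squamous epithelium had a row, and none of 5 acinar markers did.

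Membrane mucins are large glycoproteins anchored in the apical surface of ductal and other glandular epithelia. Their extracellular part carries dense O-linked glycans that lubricate and shield the cell, and proteases can release it, as happens with the MUC16 ectodomain that is measured in blood as the tumour antigen CA125. CEACAM proteins belong to the immunoglobulin superfamily, bind each other between cells, and several are held in the membrane by a lipid anchor. In pancreatic tumours, MUC1, MUC4, MUC16, CEACAM5 and CEACAM6 are known as surface antigens of the malignant ductal cell.

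The upstream sequences of MUC16 and MUC4 are shown because these genes were called in opposite directions over the 5 libraries. MUC4 entered that test through its L1low libraries and was not called over all 6. The upstream sequence of MUC1 is shown because MUC1 was the most abundant member. Each sequence is the 250 bases before the RefSeq start nearest to the annotated gene start, on the gene's own strand of GRCh38.p14. They lie at chr19:9010410-9010659 for MUC16, chr3:195811930-195812179 for MUC4 and chr1:155192916-155193165 for MUC1, all on the minus strand. Capitals mark matches on either strand to 5 motifs, the E-box CACCTG, the TEAD motif GGAATG, the AP-1 motif TGANTCA, the GC box GGGCGG and the TATA motif TATAAA.
MUC16: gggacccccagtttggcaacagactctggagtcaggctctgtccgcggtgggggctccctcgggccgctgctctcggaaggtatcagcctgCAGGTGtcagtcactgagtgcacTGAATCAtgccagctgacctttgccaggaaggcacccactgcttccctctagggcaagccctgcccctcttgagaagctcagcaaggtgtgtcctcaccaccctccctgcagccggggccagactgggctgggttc
MUC4: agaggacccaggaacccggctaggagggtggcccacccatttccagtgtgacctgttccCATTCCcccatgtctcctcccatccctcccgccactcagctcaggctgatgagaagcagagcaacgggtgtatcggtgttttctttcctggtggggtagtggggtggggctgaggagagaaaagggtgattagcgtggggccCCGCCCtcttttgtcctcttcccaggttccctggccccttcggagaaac
MUC1: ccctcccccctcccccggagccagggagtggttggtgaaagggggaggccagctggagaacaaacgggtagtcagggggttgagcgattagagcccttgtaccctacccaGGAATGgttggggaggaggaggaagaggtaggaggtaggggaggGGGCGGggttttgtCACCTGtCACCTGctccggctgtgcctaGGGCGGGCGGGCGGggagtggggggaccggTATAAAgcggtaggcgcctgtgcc
The MUC16 window held 1 E-box (as CAGGTG) and 1 AP-1 match, the MUC4 window 1 TEAD match (as CATTCC) and 1 GC box (as CCGCCC), and the MUC1 window 2 E-boxes, 1 TEAD match, 4 GC boxes (of which 3 adjoin) and 1 TATA match. Among 34943 RefSeq windows of 250 bases, 17.5% held an E-box, 11.9% a TEAD match, 6.59% an AP-1 match, 42.5% a GC box and 10.8% a TATA match. These matches describe letters and are not binding sites. The promoter table held 7 of the 9 members, without MUC20 and CEACAM19, and the CEACAM6 window lies 4553 bases from the annotated gene start.

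MUC4 is further marked by a tandem repeat in the exon that encodes most of its glycosylated part. The most frequent 48-base stretch of its longest transcript in GENCODE release 44 is shown because it bears on how the gene can be counted. It has 14 identical copies within chr3:195779155-195788082, on the minus strand of GRCh38, and the copy first read lies at chr3:195788035-195788082. No letters are in capitals here.
MUC4 repeat: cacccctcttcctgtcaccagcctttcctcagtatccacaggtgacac
Of all 50-base stretches of this transcript, 28.9% occurred more than once within it. The share was 1.07% in the longest annotated transcript of MUC16 and 0 in that of MUC1, which has 1811 bases. Repeats that the annotated transcripts lack are not seen in these shares. Stretches of 50 bases shared with the transcripts of other genes made up 7.22% of CEACAM6, 2.00% of CEACAM19 and 0 of MUC1, MUC4 and MUC16. The handling of reads with several alignments is not given in the sources used here.

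MUC16 was the member with the smallest p, and its mean in L1low cells was 34.1% of its L1high mean. The gene (ENSG00000181143, chr19:8848844-9010390 on GRCh38, minus strand) encodes the longest of the membrane mucins, and its annotated exons add up to 44165 bases. It was counted 925, 783 and 769 times in L1high replicates 1, 2 and 3, which is 43.6, 38.1 and 46.8 CPM. In L1low replicates 1, 2 and 3 it was counted 241, 269 and 277 times, or 13.3, 15.0 and 15.6 CPM. Every L1low library thus lay far below every L1high library, and the groups did not overlap. The log2 fold change was -1.47 (SE 0.113, 95% interval -1.72 to -1.23, adjusted p = 6.7e-06 by edgeR), and it was -1.55 (adjusted p = 6.3e-06) over all 6 libraries. L1CAM itself, on which the cells were sorted, had an L1low mean at 25.2% of its L1high mean. Among the 614 genes called lower in L1low cells (3.15% of all genes tested), MUC16 ranked 34 by the size of the fall. Fewer cells with MUC16 RNA and less MUC16 RNA per cell cannot be told apart in these bulk libraries.

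MUC4 stood in the opposite direction at a level close to the limit of the table. It encodes the membrane mucin that binds the receptor ERBB2 (ENSG00000145113, chr3:195746765-195811973, minus strand). The gene drew 16, 11 and 22 counts in L1high replicates 1, 2 and 3, or 0.754, 0.535 and 1.34 CPM. In the L1low libraries they were 27, 35 and 33, or 1.49, 1.95 and 1.86 CPM. The groups did not overlap, but L1high replicate 3 was nearer to L1low replicate 1 than to the other L1high libraries. Among the 5 libraries of the study's comparison no L1high library exceeded 1 CPM, so MUC4 entered that test through its L1low libraries. That floor selects for a difference between its groups, so the difference is no support. Over the 5 libraries MUC4 rose with a log2 fold change of 1.45 (SE 0.348, 95% interval 0.70 to 2.20, adjusted p = 0.0248 by edgeR). It ranked 41 by size among the 859 genes called higher (4.41% of all genes tested). With L1high replicate 3 kept in, the value was 1.04 and was no longer called (adjusted p = 0.0832). It was also not called without L1low replicate 2 (1.37, adjusted p = 0.109), and with L1high replicate 3 in place of replicate 2 the value was 0.79 (adjusted p = 0.203).

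MUC1 was the most abundant member in both populations. It encodes a membrane mucin whose short cytoplasmic tail binds kinases and beta-catenin (ENSG00000185499, chr1:155185824-155192916, minus strand). Its levels were 94.4, 90.6 and 101 CPM in L1high replicates 1, 2 and 3 and 108, 106 and 112 CPM in L1low replicates 1, 2 and 3. The lowest L1low library stood just above the highest L1high library. The log2 fold change was 0.24 (SE 0.0772, 95% interval 0.08 to 0.41), which did not pass the test (adjusted p = 0.0791 with edgeR), nor over all 6 libraries, where it was 0.19 (adjusted p = 0.127). MUC1 shares 48 exon bases on its strand with ENSG00000273088, which also has a row, so part of its reads could have been assigned to either gene.

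Both CEACAM genes with a row had lower values in L1low cells, and neither passed the test. CEACAM6, a lipid-anchored adhesion protein of glandular epithelia (ENSG00000086548, chr19:41750977-41772211, plus strand), was counted 34, 25 and 33 times in L1high replicates 1, 2 and 3, or 1.6, 1.22 and 2.01 CPM. In the L1low libraries it was counted 17, 9 and 14 times, or 0.936, 0.501 and 0.791 CPM. No L1low library exceeded 1 CPM, so the gene was in the table only through its L1high libraries. That floor selects for a difference between its groups, so the difference is no support. Its log2 fold change was -0.91 (SE 0.367, 95% interval -1.71 to -0.11, adjusted p = 0.158 with edgeR) over 5 libraries and -1.09 (adjusted p = 0.0653) over all 6.

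CEACAM19, a less studied member of the family with a transmembrane segment (ENSG00000186567, chr19:44662278-44684359, plus strand), had 20.6, 18.6 and 19.2 CPM in L1high replicates 1, 2 and 3. Its L1low values were 18.4, 16.5 and 17.2 CPM, so the groups almost touched. The log2 fold change was -0.17 (SE 0.115, 95% interval -0.42 to 0.08, adjusted p = 0.409 with edgeR), and over all 6 libraries it was again -0.17 (adjusted p = 0.343). CEACAM19 shares 121 exon bases with PVR on the same strand.

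Counted together, 2 of the 5 members with a row were called over the 5 libraries, 1 in each direction, where 7.57% of all genes were called. Over all 6 libraries 1 was called, where 7.95% of all genes were. In all 5 members the values of the 3 L1low and the 3 L1high libraries lay apart, MUC1 and MUC4 with the higher values in L1low cells and MUC16, CEACAM6 and CEACAM19 with the lower ones. The same held for 28.8% of all genes in either direction. CEACAM6 entered the table only through L1high libraries, and MUC4 exceeded 1 CPM in 3 L1low libraries and 1 L1high library, so these counts support nothing about the members. The plot of levels by library shows each member beside L1CAM.

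**Figure D1:**
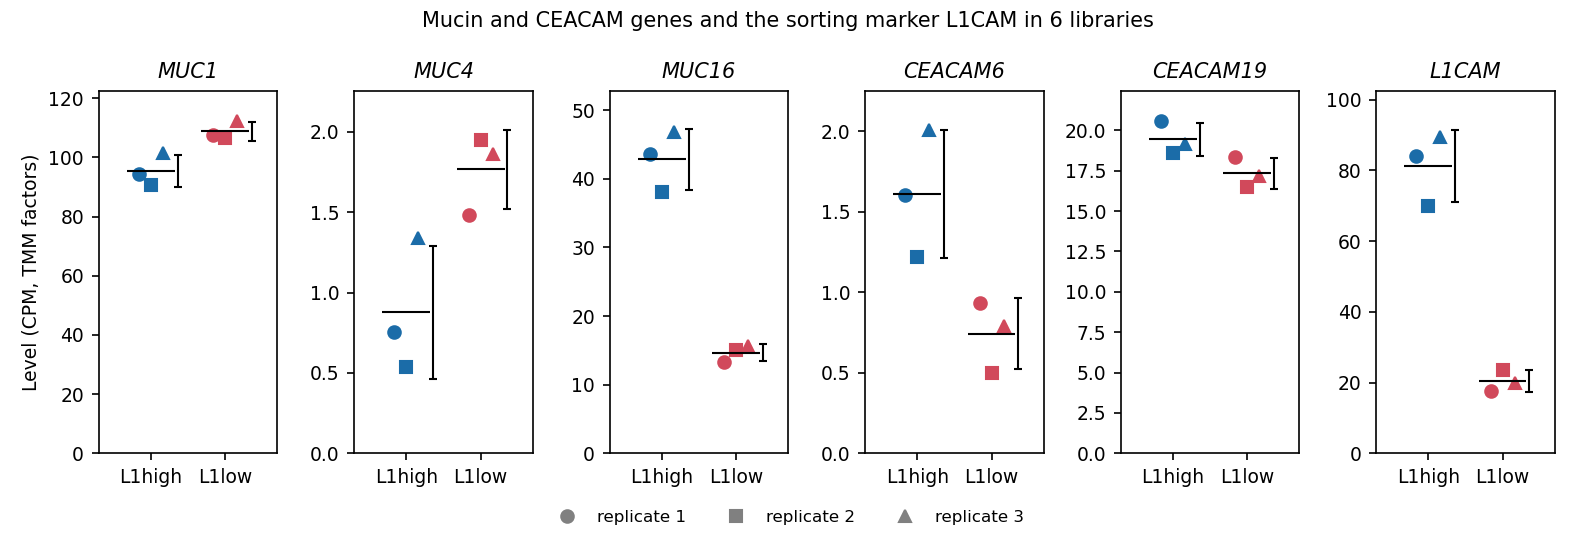
Level of each member with a row, and of L1CAM, in CPM with TMM factors (each panel has its own axis from 0), for 3 L1high (blue) and 3 L1low (red) libraries; marker shapes give the replicate number, horizontal lines the group mean and vertical bars 1 SD on either side. MUC16 stands at 13.3 to 15.6 CPM in L1low and 38.1 to 46.8 CPM in L1high libraries, while MUC4 and CEACAM6 lie at or under 2.01 CPM throughout.

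Levels of different genes can be compared only per length. In CPM per kilobase of annotated exon, MUC1 stood at 39.8 ± 2.26 in L1high and 45.3 ± 1.33 in L1low cells (SD, n = 3 each). CEACAM19 followed at 3.76 ± 0.199 and 3.35 ± 0.185 CPM per kilobase. Next came MUC16 in both populations, at 0.970 ± 0.0999 in L1high and 0.331 ± 0.0278 CPM per kilobase in L1low cells. Below it stood CEACAM6, at 0.545 ± 0.134 and 0.251 ± 0.0748 CPM per kilobase. In L1low cells MUC16 and CEACAM6 were adjacent in this order and close to each other, since the highest CEACAM6 library (0.317) lay within the range of the MUC16 libraries (0.300 to 0.354). MUC4 was the lowest member per length, at 0.0417 ± 0.0198 and 0.0840 ± 0.0117 CPM per kilobase. Exon lengths here are the union over all annotated transcripts and overstate the length of any single annotated transcript. Sequence that the annotation lacks, such as missing repeat copies, is not in these lengths and would make a level per kilobase too high.

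Among the genes with a profile most like that of MUC16 over the 6 libraries, by Pearson r of log2 CPM, were LIF (0.9996) and NAV1 (0.9976). LIF encodes a cytokine of the interleukin-6 family and NAV1 a microtubule-associated protein. Both fell in L1low cells, and their log2 fold changes were -0.84 and -0.53 beside -1.47 for MUC16. The 6 libraries form separate groups and share their sorting, and 97 genes had an r above 0.98, so these values are descriptions.

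Among the mucins and CEACAM genes that are not members, MUC5B was the only one with a row out of 6 secreted mucins, 9 other membrane mucins and 8 other CEACAM genes listed. The 10 listed pregnancy-specific glycoprotein genes, which sit beside the CEACAM genes on chromosome 19, had none. MUC5B, a gel-forming mucin of airway and bile duct mucus, stood at 3.46 ± 0.495 CPM in L1high and 3.84 ± 0.862 CPM in L1low cells (SD, n = 3 each). Its libraries overlapped, and its log2 fold change was 0.26 (SE 0.234, adjusted p = 0.545 with edgeR).

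The enzymes that build O-glycans on mucins had called genes in both directions. Of 44 listed enzymes, 31 had a row, of which 2 were called higher and 2 lower over the 5 libraries, where 4.41% of all genes were called higher and 3.15% lower. Their median log2 fold change was -0.04 beside 0.00 over all genes. ST6GALNAC1, which adds the sialic acid of the sialyl-Tn antigen, fell by 0.92 on the log2 scale (SE 0.139, adjusted p = 0.0015 with edgeR), from 18.6 to 21.1 CPM in L1high libraries to 9.03 to 12.1 CPM in L1low libraries. GCNT3, which adds branches to the core of O-glycans, fell by 0.79 (SE 0.125, adjusted p = 0.0020). GALNT1, which places the first sugar on serine or threonine, rose by 0.52 (SE 0.0982, adjusted p = 0.0062). B3GNT7, which adds N-acetylglucosamine to lengthening chains, rose by 0.65 (SE 0.181, adjusted p = 0.048), and its adjusted p ran from 0.016 to 0.153 over the alternatives. GALNT2, with the highest mean CPM of the list without regard to length, stood at 134 CPM in L1high and 138 CPM in L1low cells and was not called. C1GALT1, which makes the T antigen, and its chaperone C1GALT1C1, named here after their values were seen, had log2 fold changes of -0.41 and -0.32 (adjusted p = 0.119 and 0.124 with edgeR).

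**Figure D2:**
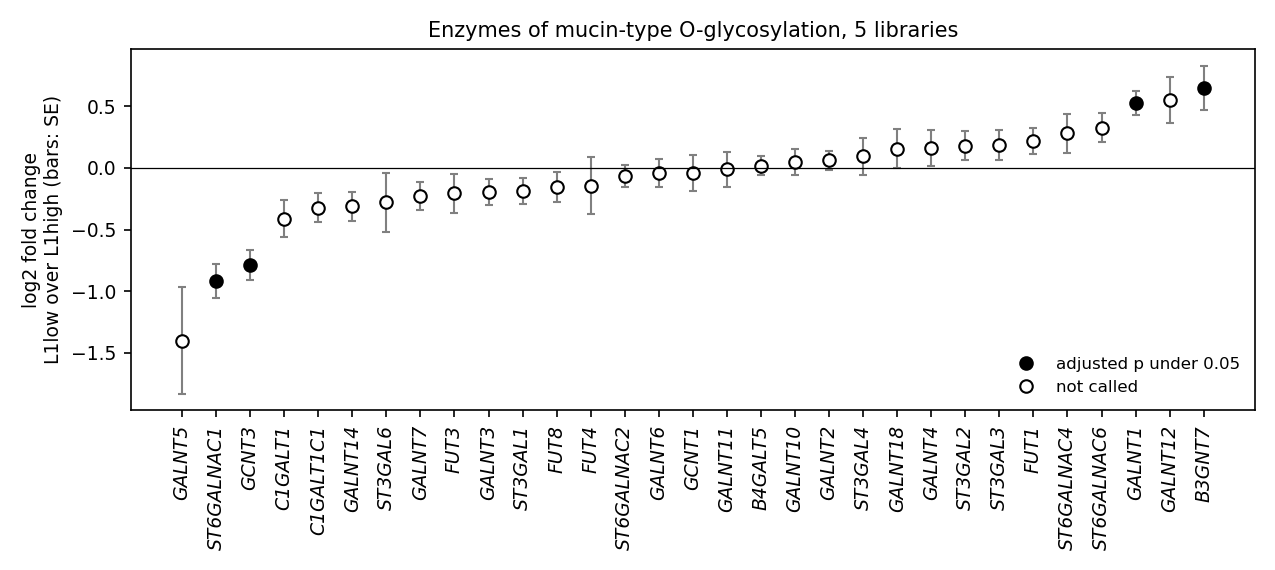
Log2 fold change of L1low over L1high for the 31 O-glycosylation enzymes with a row, ordered by value, with bars of 1 standard error on either side, from the 5 libraries; filled points were called by edgeR. ST6GALNAC1 (-0.92) and GCNT3 (-0.79) are the filled points below 0, and GALNT1 (0.52) and B3GNT7 (0.65) those above.

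Proteins that bind or cut the members had called genes in both directions as well. Of 17 listed genes, 15 had a row, of which 5 were called higher and 2 lower (4.41% and 3.15% of all genes), with a median log2 fold change of 0.07. MSLN, the mesothelin that binds MUC16, fell by 0.82 (SE 0.0912, adjusted p = 1.4e-04 with edgeR). Its levels were 86.2, 73.8 and 93.4 CPM in L1high replicates 1, 2 and 3 and 44.6, 44.1 and 46.8 CPM in L1low replicates 1, 2 and 3. MUC16 and MSLN were thus both lower in every L1low library than in every L1high library. The same held for 2660 of all 19469 genes and for 5 of the 15 listed genes with a row. LGALS3, the lectin galectin-3 that binds mucin glycans, fell by 0.61 (SE 0.137, adjusted p = 0.0178), and it was not called without L1low replicate 2 (adjusted p = 0.103). EGFR (0.58), MET (0.59), SRC (0.53) and MMP14 (0.50) rose in L1low cells with adjusted p from 4.4e-04 to 0.0035. EGFR and MET are receptor kinases and SRC a cytoplasmic kinase known to act on the MUC1 tail, and MMP14 is a membrane protease that can release MUC1. EGFR also had the highest mean CPM of the list over the 6 libraries, without regard to length, at 295 CPM in L1high and 445 CPM in L1low cells. ERBB2, the receptor bound by MUC4 and named here after its values were seen, had a log2 fold change of 0.38 (adjusted p = 0.0268), and over all 6 libraries it was 0.29 and not called (adjusted p = 0.0776).

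**Figure D3:**
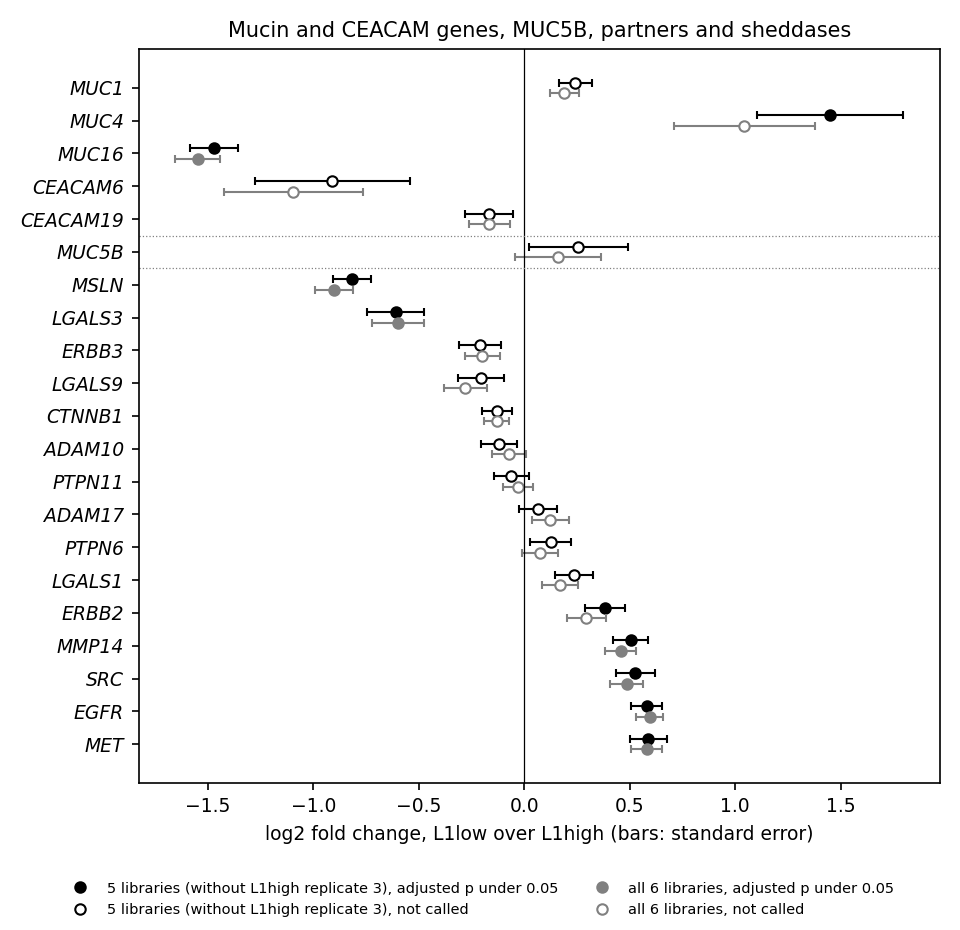
Log2 fold change of L1low over L1high with bars of 1 standard error on either side, for the 5 members, MUC5B and the 15 partners and sheddases with a row, over 5 libraries (black) and all 6 (grey); filled points are called. MUC16 lies at -1.47 and -1.55, and MUC4 moves from 1.45 (filled) to 1.04 (open) when L1high replicate 3 is kept in.

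Other glandular genes gave a mixed picture. Of 30 listed, 12 had a row, of which 2 were called higher and 1 lower (4.41% and 3.15% of all genes), with a median log2 fold change of -0.01. S100P, a calcium-binding protein of pancreatic tumour cells, fell by 0.64 (SE 0.103, adjusted p = 0.0024 with edgeR). ELF3, an epithelial transcription factor, rose by 0.45 (SE 0.0855, adjusted p = 0.0066), and ANXA10, an annexin of gastric-type epithelium, rose by 0.86 (SE 0.164, adjusted p = 0.0071). Neither ELF3 nor ANXA10 was called without L1low replicate 2 (adjusted p = 0.0605 and 0.05001 with edgeR). FXYD3, with the highest mean CPM of the list, not per length, had a log2 fold change of -0.22 (adjusted p = 0.134).

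The line is adenosquamous, and squamous genes were measured for comparison. Of 18 listed, 13 had a row, of which 5 were called higher and 1 lower (4.41% and 3.15% of all genes), with a median log2 fold change of 0.19. TP63, the master transcription factor of squamous cells, rose by 1.09 (SE 0.0756, adjusted p = 3.9e-06 with edgeR), from 283 to 314 CPM in L1high libraries to 614 to 668 CPM in L1low libraries. The atypical cadherin FAT2 (0.69), the basal keratin KRT14 (0.50) and TRIM29 (0.33) also rose, while the stress-induced keratin KRT6A fell by 0.58. Their adjusted p with edgeR ran from 1.9e-04 to 0.0103. Over the alternatives the adjusted p of TRIM29 ran from 0.0014 to 0.0992, so its call was not kept under all of them. KRT5, with the highest mean CPM of this list, again not per length, had a log2 fold change of 0.14 (adjusted p = 0.225). The plot of the called falls sets MUC16 against the sorting marker L1CAM.

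**Figure D4:**
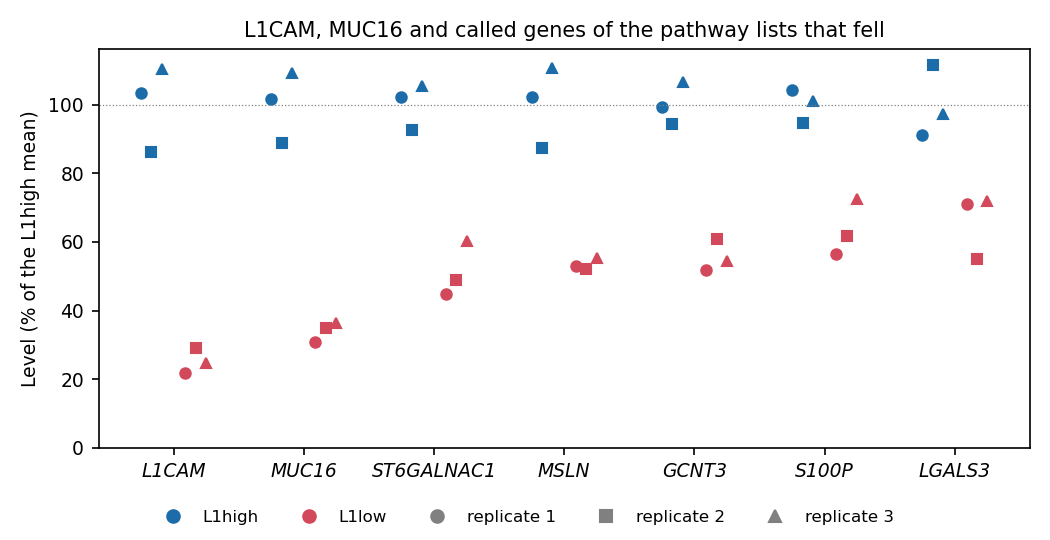
Level in each library as a percentage of the L1high mean of the same gene, for L1CAM, MUC16 and the called genes that fell in the lists of enzymes, partners and glandular genes; blue marks L1high, red L1low and the shape the replicate number. MUC16 lies at 31.0% to 36.5% in the L1low libraries, between L1CAM and the other genes.

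Markers of other cell types were summed beside these results. Of 4 mesothelial markers (MSLN, WT1, CALB2 and UPK3B), all had a row, and their summed level was 83.5 to 104 CPM in L1high and 50.8 to 54.8 CPM in L1low libraries, most of it MSLN. WT1 stood at 4.16 and 2.68 CPM, CALB2 at 4.55 and 2.97 CPM and UPK3B at 1.33 and 1.91 CPM in L1high and L1low cells. WT1, CALB2 and UPK3B were not called over the 5 libraries (adjusted p = 0.138, 0.102 and 0.239 with edgeR), unlike MSLN. The sum was lower in L1low cells, as MUC16 was, while UPK3B alone had the opposite order. Of 8 fibroblast or stellate cell markers, 3 had a row, and their sum of 86.7 to 98.5 CPM in L1high and 140 to 160 CPM in L1low libraries was mostly LUM, with no row for COL1A2, DCN, PDGFRA, PDGFRB and FAP. A single leukocyte marker of 6 (CD68) and a single endothelial marker of 3 (PECAM1) had a row, at 8.42 to 11.3 and 11.3 to 14.7 CPM. All libraries were of sorted cells of the L3.6pl line, so these levels are not taken as counts of other cell types. The relation of these markers to the mucin levels was not tested.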

How the data were processed

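RNA of L1high and L1low L3.6pl cells was sequenced in 3 libraries each, per the labels. The libraries were stranded and read from both ends. The authors placed the reads on GRCh38 with BWA and used featureCounts with the genes of Ensembl release 94. They deposited raw counts per gene. The submitters' processing notes also name DESeq2, hg38 and GRCh38.p13. Versions, strand and multi-mapping settings are not given in the sources used here. BWA does not split reads across splice junctions. All 19469 genes of the deposited count table exceeded 1 CPM in at least 2 libraries, so lower genes were not analysed here.

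Groups came from the labels. The groups were compared with edgeR 4.0.16 under R 4.3.3 (TMM factors, filterByExpr, quasi-likelihood test, Benjamini-Hochberg adjustment over all genes tested). The fit took the 5 libraries of the study's comparison, and all 6 were fitted beside it, where 19467 genes passed the filter. Standard errors are the log2 fold change divided by the square root of F, and intervals are 95%. A prior count of 2 was used only for log2 CPM values (likeness, overlap and replicate deviations). It did not enter the fitted fold changes, standard errors or intervals. Total counts were 16334610 to 21064685 per library, no libraries were near duplicates (the smallest chi-square per degree of freedom of any pair was 3.66), and the common biological coefficient of variation was 0.0883. Tested on simulated data in which 200 of the 19469 genes carried a log2 change of 1 between these 5 libraries, the fit recovered 158 (79%), and 12 of 170 calls were unchanged genes. Intervals and counts at low levels cover these libraries only.

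Symbols, coordinates and exon lengths came from GENCODE release 44, which matched 19344 identifiers, and upstream sequences from RefSeq. The members and gene lists were chosen with earlier results of these data known. Named are all members, L1CAM, every gene of lists with up to 6 rows, otherwise the 4 called genes of smallest p per direction and the gene with the highest mean CPM, and the 3 genes most like the called member of smallest p, of which 1 is not reported here. Genes named outside this rule are marked as such, or overlap a member or mark a cell type. Alternatives tried were all 6 libraries, leaving out single replicates, the replicate number as a block, RLE, upper-quartile or library-size scaling, DESeq2 1.42.0, no filter, and at least 10 counts in every library.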

Additional observations from a re-analysis of the deposited data

How the results depend on the processing

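MUC16 was called lower in L1low cells under every alternative run, with log2 fold changes from -1.63 to -1.41. MUC1 and CEACAM19 kept their direction and were called under none, at 0.15 to 0.26 and -0.21 to -0.12. MUC4 stayed higher in L1low cells throughout but was not called over all 6 libraries (1.04, adjusted p = 0.0832), and not without L1low replicate 2 (1.37), L1high replicate 1 (0.95) or L1high replicate 2 (0.79), with L1high replicate 3 in place of a left-out L1high library. Its value ran from 0.79 to 1.56 when single replicates were left out. CEACAM6, at -1.26 to -0.70, was called only with all 6 libraries and the replicate block (-1.11, adjusted p = 0.0346). DESeq2 gave MUC4 and CEACAM6 no adjusted p, and CEACAM6 was not tested with at least 10 counts in every library. The number of members called was 1 over all 6 libraries and with DESeq2 (of 3 with an adjusted p), and 1 to 2 without single replicates. With all 6 libraries and the replicate block it was 3, of which 1 was higher and 2 lower in L1low cells. The number of all genes called ran from 551 (without L1low replicate 2) and 674 (without L1high replicate 1) to 1649 without single replicates, and was 2363 with all 6 libraries and the block. The called O-glycosylation enzymes were then 7, and the called glandular genes 1 to 4 without single replicates.

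The labels do not say whether the replicate numbers pair the samples, and the main fit did not pair them. The correlations of same-numbered deviations were 0.0743, 0.0906 and 0.208, and each library correlated best with its own number. Pairs with unlike numbers ran from -0.130 to 0.0469. The replicate block called 1799 genes over the 5 libraries, with MUC16 at -1.52, MUC1 at 0.22, MUC4 at 1.41, CEACAM6 at -0.97 and CEACAM19 at -0.16. It changed no other call of a member than that of CEACAM6 over 6 libraries and that of MUC4 there (1.05, adjusted p = 0.0481).

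Of 364 values of the other named genes under the alternatives, 344 stayed on the same side of the threshold, 16 lost the call and 4 gained it, all in the same direction. Of 654 values of list genes not named, 19 changed sign, 6 lost the call and 13 gained it. MUC4 and CEACAM6 rested on 9 to 35 counts per library, and the part of depth in their calls was not tested. The cause of these changes was not tested.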
